A study of Danio rerio with 12 samples.

Results

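Genes of microglia, of other leukocytes and of the interferon response were followed in the adult zebrafish (Danio rerio) brain. They were a list of 44 gene symbols, of which 40 had a row among the 32674 genes of the tables and 4 did not (csf1ra, il1b, lck and ddx58). Microglia and macrophage genes made up 11 of the 40, other leukocyte genes 12 and interferon genes 17. Of the 40, 29 had a scaled count of at least 10 in at least 6 libraries and were tested.

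Brain RNA of the F3 generation of an EK strain was compared between a methylmercury (MeHg) lineage and a control lineage, to ask whether ancestral exposure is followed by a different brain transcriptome. Eggs of the generation called F1 were kept for 24 h in 0.03 µM MeHg for the MeHg lineage, or in 0 µM MeHg for the control lineage, with ethanol as the vehicle in both. The fish whose brains were sampled had not been exposed to added MeHg themselves. Usable were 6 MeHg libraries (replicates 1, 2, 4, 5, 7 and 8) and 5 control libraries (replicates 2, 4, 5, 6 and 8), and 1 column without a name in each table was not analysed here. The labels call the samples biological replicates, without saying whether a sample is 1 brain or several, and give no sex and no time of collection. How many ancestors founded each lineage is likewise not given, so p-values measure the spread between these brain samples, and the founding of a lineage cannot be told apart from its treatment.

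Microglia are the resident macrophages of the brain. They take up dead cells and debris, sense tissue damage, and depend on CSF1 receptor signalling and on the transcription factor PU.1. In adult zebrafish brain, as in other vertebrates, blood-borne neutrophils and lymphocytes are scarce in the tissue itself. Interferon acts through receptors that lead to phosphorylation of STAT proteins, among them STAT2, which joins IRF9 to switch on antiviral genes such as those of Mx proteins, viperin and ISG15. RNA sensors of the RIG-I family sit upstream of interferon. In whole-brain RNA, fewer cells of a type and less RNA per cell cannot be told apart.

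Values are the authors' scaled counts, fragment counts per gene divided by a size factor per library, and log2 fold changes are MeHg over control on the log2(scaled count + 1) scale. Where 5 control values are listed, they are in the order of replicates 2, 4, 5, 6 and 8. Implied depth ran over 3248608 to 7503932 fragments in MeHg libraries and 2062484 to 6100927 in control libraries. Neuron markers were high in every library (6 of 7 found, summed scaled counts 24630 to 33640 in MeHg libraries and 22440 to 32500 in control libraries), and the microglia marker mpeg1.1 was at 82.9 or more in all 11. Some libraries also had high values of epidermis, muscle or red blood cell markers. This is called RNA of those tissues below by its markers alone, and its source was not tested. Summed epidermis markers (12 of 13 found) spanned 445 to 51130 in MeHg libraries and 752 to 64800 in control libraries, with MeHg replicates 4 (24960) and 5 (51130) and control replicate 4 (64800) far above the other 8, which reached at most 4902. The keratin genes cyt1 and cyt1l of that list stayed at 0 to 4.97. Muscle markers (10 of 11 found) summed to 52.3 to 22320 in MeHg libraries, highest in replicate 4, and to 152.0 to 2318 in control libraries, with tnni2a.4 at 0 in 9 of 11 libraries. Red blood cell markers (3 of 8 found) summed to 3340 to 18450 in MeHg libraries, highest in replicate 4, and to 2434 to 25790 in control libraries, highest in replicate 5. Control replicate 5 also had the lowest elavl3, a neuronal RNA-binding protein gene, at 495.4, and the lowest elavl4 at 415.9. Its other neuron markers were not low. Its stmn2a was the highest of all libraries at 4483, and its neuron sum of 32500 was the highest of the control lineage.

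None of the 29 tested members passed the test in either direction (limma, Benjamini-Hochberg adjusted p under 0.05, smallest adjusted p = 0.743). Across all 16364 genes tested 44 passed, which is 0.269%, so fewer than 1 call among 29 genes matches that background. At an unadjusted p under 0.05 there was 1 member, apoeb, while 6.61% of all genes met that limit. MeHg and control libraries overlapped in their values for every member, whereas they did not overlap for 1.37% of all genes. The log2 fold change was above 0 for 18 members and below 0 for 11. Its median over the members was 0.12, and it was 0.03 over all genes tested, of which 54.3% had a positive value. By group the median was 0.11 for the 10 tested microglia and macrophage genes, 0.12 for the 9 tested leukocyte genes and 0.10 for the 10 tested interferon genes, with 6, 6 and 6 members above 0.

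**Figure D1:**
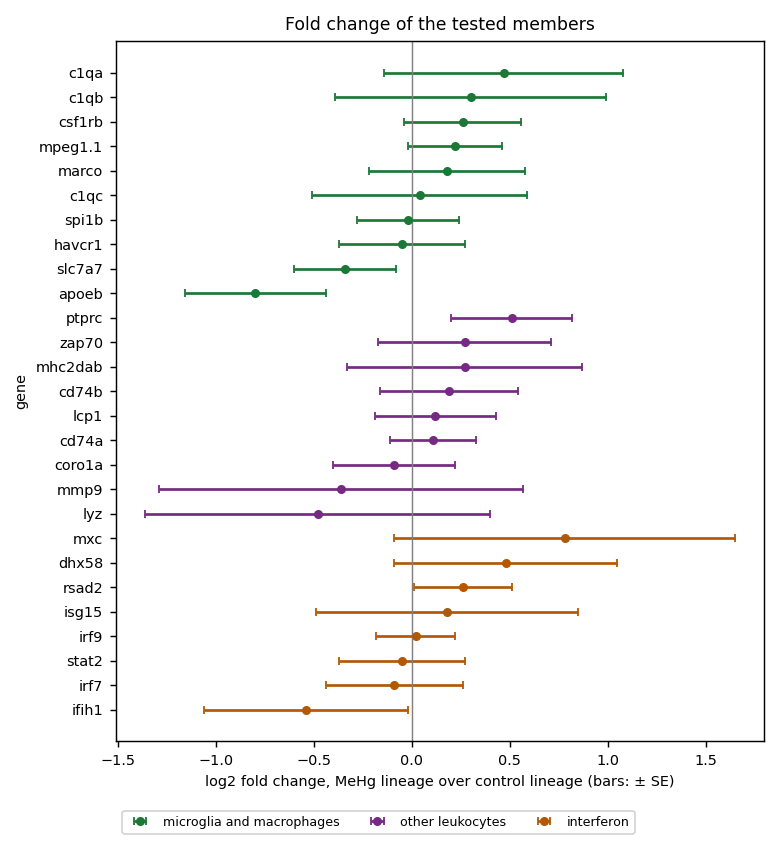
Log2 fold change (MeHg lineage over control lineage, horizontal axis) of 27 of the 29 tested members, with bars of 1 standard error, for microglia and macrophages, other leukocytes and interferon genes. Points lie between -0.80 (apoeb) and 0.78 (mxc) on both sides of 0.

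That balance moved with single libraries. Without MeHg replicate 4 the members' median log2 fold change was -0.07 and 9 of 29 were above 0. Without MeHg replicate 7 the median was 0.19 and 24 of 29 were above 0. Of all 16364 genes, 9149 and 8772 were above 0 in these 2 fits. The members' median was -0.03 without control replicate 2, -0.02 without control replicate 6, and 0.23 without control replicate 5. In the 8 libraries with low epidermis levels, 0 members passed (22 of all genes did, 0.134%), and the median over members was -0.01. In the 7 libraries left when control replicate 5 was also taken out, 0 members passed (51 of all genes did, 0.312%), and the median was 0.17.

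Microglia and macrophage genes were expressed in every library. Scaled counts of mpeg1.1, a perforin-like gene of the macrophage lineage, were 138 to 226 with a median of 179.9 in MeHg libraries, against 130.3, 197, 199, 82.9 and 188 in control libraries. Control replicate 6 was the lowest of all 11 and MeHg replicate 5 the highest, and the ranges overlapped throughout. Its mean was 180.4 ± 38.7 in MeHg libraries and 159 ± 51.1 in control libraries (SD, n = 6 and 5).

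The apolipoprotein gene apoeb, a lipid carrier used as a microglia marker in zebrafish, was the most abundant member. Its scaled counts were 2045 to 5039 with a median of 2965 in MeHg libraries, against 4316, 14915, 5409, 2738 and 5022 in control libraries. Control replicate 4, the library with the highest epidermis level, stood alone at the top, and 4 of 5 control values lay above 5 of 6 MeHg values. Means were 3252 ± 1036 in MeHg libraries and 6480 ± 4825 in control libraries (SD). On the log2 scale MeHg over control came to -0.80 ± 0.36 (SE), with an adjusted p of 0.743 by limma and an unadjusted p of 0.045 from the same fit across all genes. With 1 library left out it came to -0.44 (without control replicate 4) and -1.05 (without control replicate 6) at the extremes. In the 8 libraries with low epidermis levels it was -0.68, and in the 7 that were also low in blood -0.56. By limma these 2 fits gave adjusted p of 0.783 and 0.409, and unadjusted p of 0.0157 and 0.0252. Of all 16364 genes, 908 and 1742 had an unadjusted p under 0.05 in the same 2 fits.

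The complement genes c1qa, c1qb and c1qc, which encode the chains of C1q and are made in the brain mainly by microglia, varied far more than mpeg1.1. Scaled counts of c1qb were 19.7 to 197 with a median of 29.1 in MeHg libraries, against 9.14, 60.6, 102.4, 11.5 and 33.3 in control libraries. MeHg replicate 4 was the highest of all libraries for all 3 genes, and control replicate 5 was the second highest. Their values there were 109, 197 and 159.8 for c1qa, c1qb and c1qc in MeHg replicate 4, and 87.8, 102.4 and 64.8 in control replicate 5. Mean scaled counts of c1qa were 40.3 ± 34.3 in MeHg libraries and 33.4 ± 32.4 in control libraries (SD), a log2 fold change of 0.47 ± 0.61 (SE). It was 0.06 without control replicate 2, 0.13 without MeHg replicate 4 and 0.94 without control replicate 5. For c1qb the log2 fold change was 0.30 ± 0.69, and it was -0.17 without MeHg replicate 4 and 0.74 without control replicate 5. For c1qc the means were 48.2 ± 55.8 in MeHg libraries and 36.0 ± 18.6 in control libraries. These are neighbouring members of a gene family, and how the authors' counting handled reads shared between copies is not given in the sources used here.

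Markers tied to microglial identity were steadier than the C1q genes. The CSF1 receptor gene csf1rb had scaled counts of 36.2 to 57.7 with a median of 38.2 in MeHg libraries, against 29.7, 38.8, 16.7, 43.0 and 64.7 in control libraries. Both the highest and the lowest library were control libraries (replicates 8 and 5), and the log2 fold change of 0.26 ± 0.30 (SE) was smaller than its error. It was 0.00 without control replicate 5 and 0.48 without control replicate 8. The PU.1 gene spi1b was at 66.4 ± 16.3 in MeHg libraries and 70.7 ± 34.2 in control libraries (SD). Control replicate 5 reached 131.7 against 52.8 to 58.2 in the other 4 control libraries. The amino acid transporter slc7a7, which zebrafish microglia need to form, had 31.9 to 60.1 with a median of 37.5 in MeHg libraries, against 29.7, 85.5, 46.0, 48.4 and 53.6 in control libraries. MeHg replicate 4 and control replicate 4, 2 of the 3 epidermis-rich libraries, were the highest of their lineages, and the log2 fold change of -0.34 ± 0.26 (SE) had an adjusted p of 0.882 by limma. It was -0.15 without control replicate 4 and -0.52 without control replicate 2. The scavenger receptor gene marco averaged 33.0 ± 21.1 in MeHg libraries and 27.05 ± 11.4 in control libraries, with MeHg replicate 4 highest at 72.5. The gene havcr1, whose mammalian counterpart is a receptor for dying cells, averaged 51.8 ± 12.7 in MeHg libraries and 57.5 ± 25.9 in control libraries. The ADP receptor gene p2ry12, the classical marker of resting microglia in mammals, was low, with 3.40 to 13.5 in MeHg libraries and 4.18 to 12.3 in control libraries, and was not tested.

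**Figure D2:**
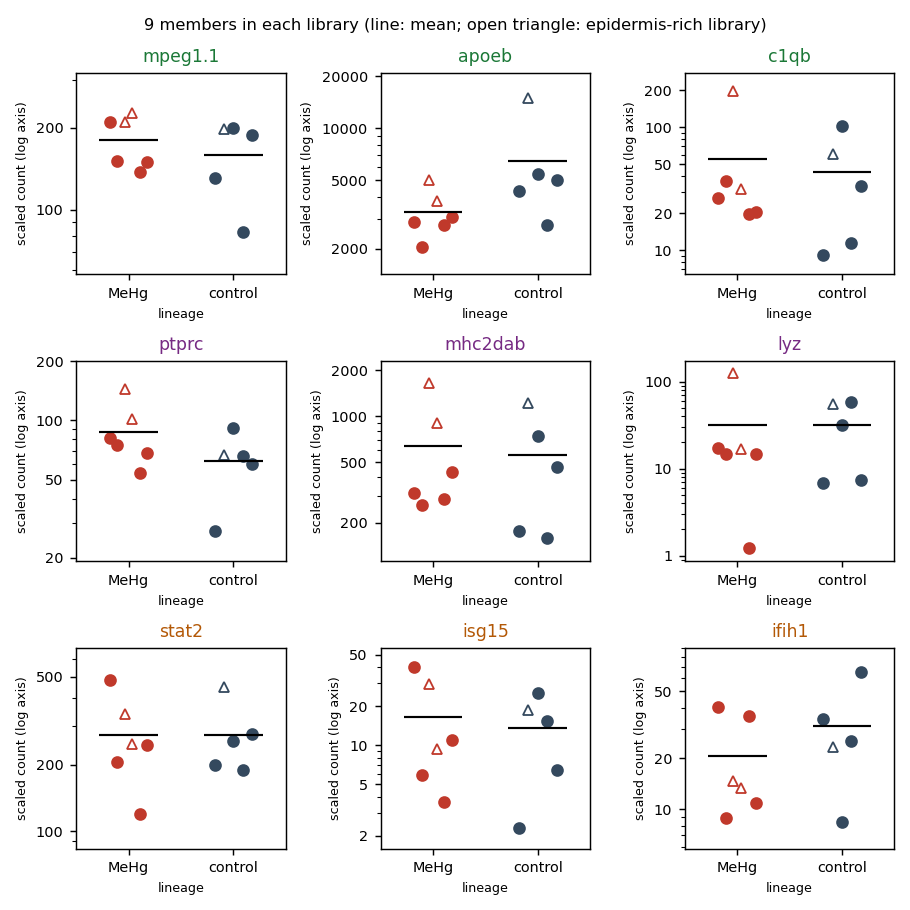
Scaled counts on a log axis of 9 members in each MeHg library (left) and control library (right), with lines for the lineage means and open triangles for the 3 epidermis-rich libraries. The lineages overlap in every panel, and the triangle of control replicate 4 at 14915 lies above all other points of apoeb.

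The pan-leukocyte genes lcp1, coro1a and ptprc encode the actin-bundling protein L-plastin, the actin-binding protein coronin 1A and the phosphatase CD45. Scaled counts of ptprc were 54.1 to 144 with a median of 78.5 in MeHg libraries, against 27.4, 66.8, 92.0, 66.0 and 60.1 in control libraries. Control replicate 2 was far below the rest and MeHg replicates 4 and 5 were the 2 highest, both rich in epidermis RNA. Means were 87.5 ± 31.9 in MeHg libraries and 62.5 ± 23.1 in control libraries (SD), and the log2 fold change of 0.51 ± 0.31 (SE) had an adjusted p of 0.84 by limma. It was 0.24 without control replicate 2 and 0.29 in the 8 libraries with low epidermis levels. For lcp1 the means were 137 ± 51.5 in MeHg libraries and 130.4 ± 70.3 in control libraries, and for coro1a 183 ± 77.1 and 199.8 ± 102.3 in the same order. MeHg replicate 4 and control replicate 5 held the 2 highest values of both genes.

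Antigen presentation genes ranked next to apoeb in abundance. The paralogs cd74a and cd74b encode the invariant chain of MHC class II, and mhc2dab a class II beta chain. Scaled counts of mhc2dab were 263 to 1655 with a median of 373 in MeHg libraries, against 176, 1221, 744, 159.7 and 465 in control libraries. The highest 3 libraries were MeHg replicate 4, control replicate 4 and MeHg replicate 5, the same 3 that were rich in epidermis RNA. Means were 642 ± 550.1 in MeHg libraries and 553 ± 444 in control libraries (SD), with a log2 fold change of 0.27 ± 0.60 (SE) over all libraries, 0.02 in the 8 with low epidermis levels, -0.07 without MeHg replicate 4 and 0.66 without control replicate 4. The part of the epidermis RNA in these values was not tested. For cd74a the means were 2372 ± 788 in MeHg libraries and 2151 ± 506 in control libraries, and for cd74b 1118 ± 549 in MeHg libraries and 997 ± 489 in control libraries.

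Among the tested members above 0 in every library, lyz and mmp9 had the widest ranges relative to their lowest value. Scaled counts of lyz, the lysozyme gene of neutrophils and macrophages, were 1.23 to 124.7 with a median of 15.8 in MeHg libraries, against 6.86, 55.9, 31.4, 57.6 and 7.39 in control libraries. For mmp9, a matrix protease of neutrophils and of injured epithelium, they were 10.7 to 319.6 with a median of 31.2 in MeHg libraries, against 4.57, 124, 113, 112 and 31.4 in control libraries. MeHg replicate 4 was the highest library for both, and in the control lineage replicates 4, 5 and 6 were high and replicates 2 and 8 low. The highest value was 101.5 times the lowest for lyz and 69.9 times for mmp9. Both ratios rest on a lowest value of few fragments. In MeHg replicate 7, lowest for lyz, 1 fragment is worth 1.229. In control replicate 2, lowest for mmp9, 3 fragments are worth 6.86. Log2 fold changes were -0.48 ± 0.88 for lyz and -0.36 ± 0.93 for mmp9 (SE), well within their errors. With 1 library left out, lyz came to -1.06 (without MeHg replicate 4) and 0.10 (without MeHg replicate 7) at the extremes, and mmp9 to -1.15 (without control replicate 2) and -0.02 (without MeHg replicate 1). The other neutrophil genes were low. The myeloperoxidase gene mpx had 2.01 to 34 in MeHg libraries and 4.57 to 19.2 in control libraries, and lect2l had 1.21 to 15.9 in MeHg libraries and 0 to 21.5 in control libraries. For mpx the highest library was again MeHg replicate 4. The cytokine gene tnfa was listed at 0 in 4 of 6 MeHg libraries and in all 5 control libraries, and its sum over all libraries was 2 implied fragments.

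The T cell kinase gene zap70 was near the filter, with 8.05 to 24.9 and a median of 10.7 in MeHg libraries, against 11.4, 6.22, 27.2, 5.38 and 7.39 in control libraries. Control replicate 5 and MeHg replicate 4, the 2 libraries with the most red blood cell RNA, were the highest. Its log2 fold change was 0.27 ± 0.44 (SE), and it was -0.17 in the 8 libraries with low epidermis levels, 0.06 without MeHg replicate 4 and 0.62 without control replicate 5.

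Of the 10 tested interferon genes, transcription factors were among the more abundant. Scaled counts of stat2, a signal-activated transcription factor gene, were 119 to 481 with a median of 247 in MeHg libraries, against 199, 447.5, 255, 188 and 275 in control libraries. MeHg replicate 1 and control replicate 4 were the highest, MeHg replicate 7 was the lowest, and the ranges overlapped. Means were equal, at 273 ± 124 in MeHg libraries and 273 ± 104 in control libraries (SD). Its partner gene irf9 had the smallest pooled SD of log2(scaled count + 1) among the tested members, 0.31. It was at 86.5 ± 10.9 in MeHg libraries and 87.9 ± 30.1 in control libraries, where replicate 5 reached 140.0. In the FPKM values it was less steady, at 13.9 ± 3.70 in MeHg libraries and 11.7 ± 3.44 in control libraries, with a range of 8.11 to 18.75. The gene irf7, an inducer of interferon genes, averaged 26.8 ± 9.50 in MeHg libraries and 30.1 ± 15.5 in control libraries.

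Among the effectors, isg15, which encodes a ubiquitin-like protein, had scaled counts of 3.69 to 40.2 with a median of 10.1 in MeHg libraries, against 2.29, 18.6, 25.1, 15.4 and 6.47 in control libraries. MeHg replicate 1 was the highest library. The viperin gene rsad2 was steadier, with 62.0 to 114 and a median of 71.1 in MeHg libraries, against 43.4, 57.5, 102.4, 53.0 and 82.2 in control libraries. MeHg replicate 1 was again the highest, the ranges overlapped, and the log2 fold change of 0.26 ± 0.25 (SE) had an adjusted p of 0.899. It was 0.12 without control replicate 2 and 0.42 without control replicate 5. For the Mx gene mxc, a dynamin-like GTPase, scaled counts were 1.21 to 23.8 with a median of 16.0 in MeHg libraries, against 0, 21.8, 27.2, 3.07 and 8.32 in control libraries. MeHg replicate 8 and control replicates 2 and 6 held almost none, while the other 8 libraries had 8.32 to 27.2. Its log2 fold change of 0.78 was the most positive of the members, with a standard error of 0.87. It was 0.05 without control replicate 2 and 1.29 without MeHg replicate 8. In control replicate 2, the shallowest library, 3 fragments are worth a scaled count of 6.86, so a value of 0 there allows a level up to that (counting error only).

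The RNA sensor genes differed from each other in their order of libraries. Scaled counts of ifih1, the MDA5 gene, were 8.86 to 40.2 with a median of 14.1 in MeHg libraries, against 34.3, 23.3, 8.36, 25.3 and 64.7 in control libraries. Control replicate 8 and MeHg replicate 1 were the highest and control replicate 5 the lowest, and the log2 fold change of -0.54 ± 0.52 (SE) had an adjusted p of 0.902. It was -0.21 without control replicate 8 and -0.92 without control replicate 5. For dhx58, the LGP2 gene, they were 7.38 to 29.5 with a median of 12.2 in MeHg libraries, against 9.14, 34.2, 2.09, 7.68 and 14.8 in control libraries. Control replicate 4, MeHg replicate 4 and MeHg replicate 1 were the highest, as for stat2, and control replicate 5 was the lowest. The log2 fold change was 0.48 ± 0.57 (SE), and it was 0.03 without control replicate 5 and 0.91 without control replicate 4.

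The other effectors lay too low for the test. The Mx genes mxa and mxe had 1.23 to 23.8 and 1.23 to 39.7 in MeHg libraries, against 2.09 to 37.3 and 4.18 to 10.9 in control libraries. The nucleotide kinase gene cmpk2 had 2.95 to 14.7 in MeHg libraries and 2.30 to 8.32 in control libraries. The paralog mxb and the genes ifit8 and ifit10, of a family that binds viral RNA in mammals, stayed at or below 6.71 in every library, and ifit14 was listed at 0 in all 11. Fragment sums were 57 and 69 for mxa and mxe over the MeHg libraries and 36 and 26 over the control libraries. In the deepest library 3 fragments are worth 2.01 scaled counts and in the shallowest 6.86, so most of these values rest on a few fragments. With no filter on low values, 10 of the 11 untested members entered the fit, and 0 of them passed (45 of 26056 genes did, 0.173%, with 5.65% at an unadjusted p under 0.05). Their adjusted p was 0.923 to 0.965 by limma, and the smallest unadjusted p was 0.262.

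**Figure D3:**
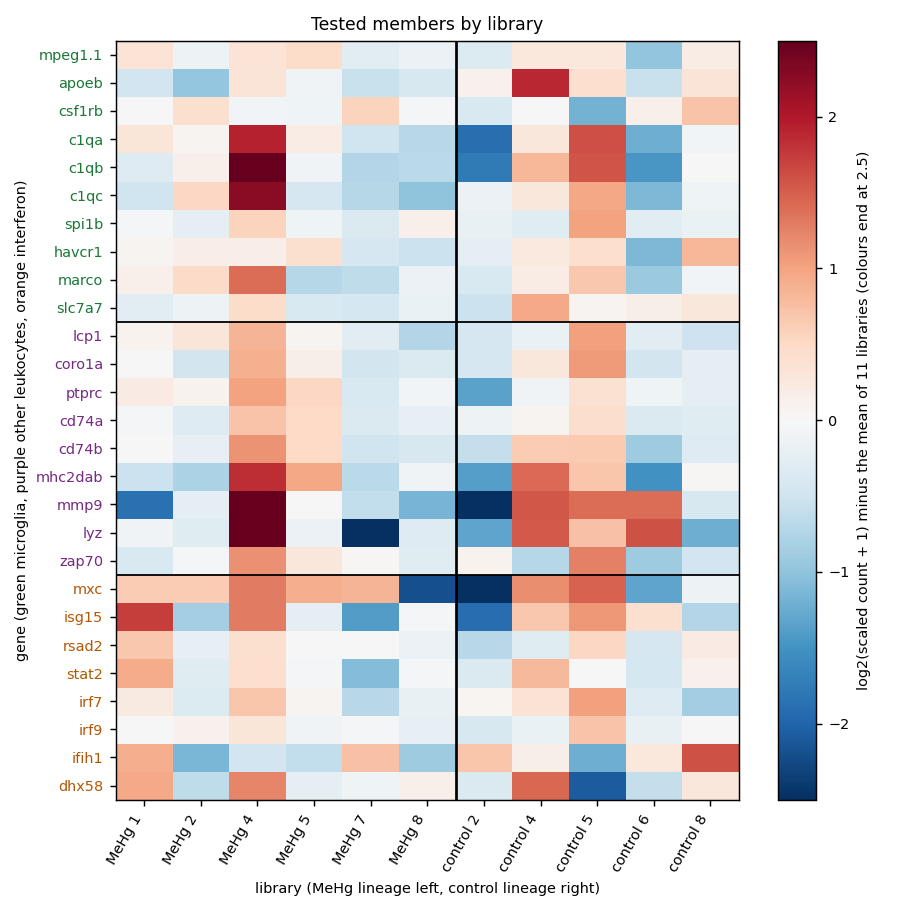
Log2(scaled count + 1) of 27 of the 29 tested members in each library minus its mean over the 11 libraries (red above, blue below, colours ending at 2.5), with MeHg libraries left of control libraries. MeHg replicate 4 and control replicate 5 are red down most of the microglia and leukocyte rows, and MeHg replicate 1 is red for isg15 and stat2.

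Single libraries of either lineage held most of the extreme values. MeHg replicate 4 had the highest value of 10 of the 29 tested members and was among the top 3 for 26, whereas it was highest for 6.03% of all genes and in the top 3 for 21.5%. It led 6 of 9 leukocyte genes, 4 of 10 microglia genes and 0 of 10 interferon genes. Control replicate 5 was highest for 7 of 29, and it was highest for 25.1% of all genes, so that count is no larger than its background. It was in the top 3 for 19 of 29 and above the mean for 26, against 39.5% and 51.6% of all genes. It was lowest for 3 of 29, against 28.2% of all genes. At the low end, control replicate 2 had the lowest value of 10 members and control replicate 6 of 9, against 9.19% and 9.07% of all genes. MeHg replicate 4 also held the most muscle RNA of all libraries and high epidermis and red blood cell RNA, and the part of these in its leukocyte values was not tested.

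In the interferon genes, high values were shared by a few libraries. MeHg replicate 1 had the highest value of 4 of 10 interferon genes (stat2, isg15 and rsad2 among them) and was above the mean in 9 of 10, against 4.55% and 56.0% of all genes. MeHg replicate 4 led none but was likewise above the mean in 9 of 10 and in the top 3 for 9, where MeHg replicate 1 was in the top 3 for 6. Control replicates 4 and 5 were each above the mean in 8 of 10, against 41.3% and 51.6% of all genes. Control replicate 5 was highest for 3 of 10 and lowest for 2, against 25.1% and 28.2% of all genes. MeHg replicate 1 led 0 of 10 microglia and 0 of 9 leukocyte genes. Its epidermis sum of 445 and muscle sum of 52.3 were the lowest of all libraries. Without MeHg replicate 1 the median log2 fold change of the interferon genes was -0.05, against 0.10 with all libraries. That shift was not particular to this library, as the median was also -0.05 without MeHg replicate 4. With 1 library left out it spanned -0.08 (without control replicate 2) to 0.26 (without MeHg replicate 7).

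**Figure D4:**
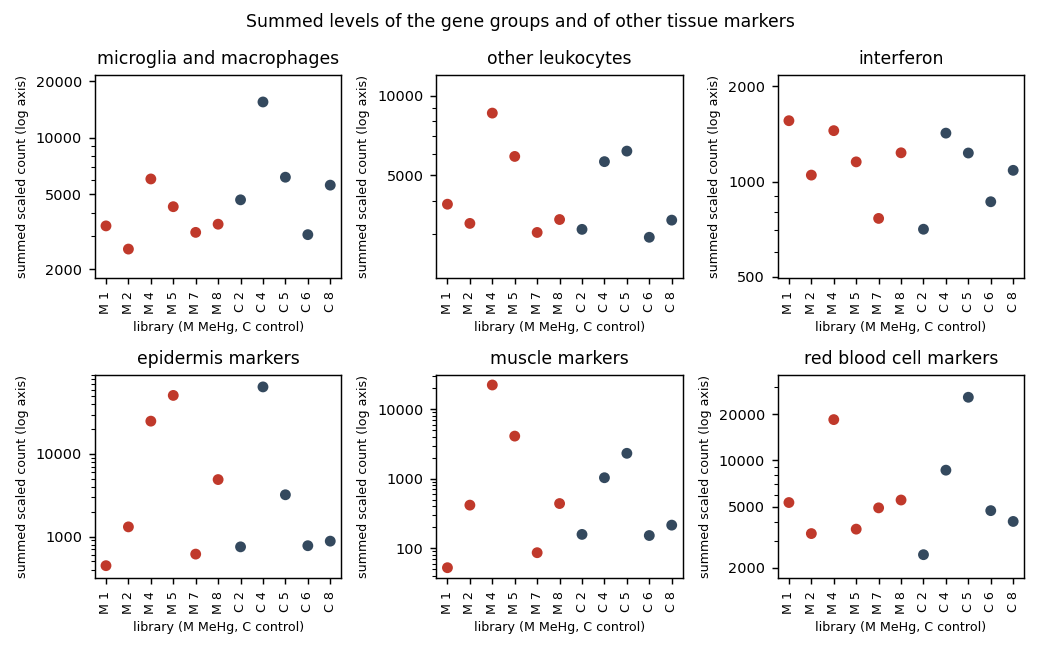
Summed scaled counts on log axes of the 3 gene groups (upper row) and of epidermis, muscle and red blood cell markers (lower row) in each library (M, MeHg replicate, C, control replicate). The leukocyte sum is highest in MeHg replicate 4 at 8585, and the microglia sum in control replicate 4 at 15530, most of which is apoeb.

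Spread between libraries was compared for each lineage, as the SD of log2(scaled count + 1). The median SD of the 29 members was 0.56 in MeHg libraries and 0.71 in control libraries, and over all genes tested it was 0.29 and 0.44. Members thus varied more than the median gene in both lineages, and the pooled SD had a median of 0.66 over the members and 0.39 over all genes. Set against the 500 tested genes nearest to each member in mean level, the pooled SD stood at the 99.8th percentile for mhc2dab, 98.6 for apoeb, 98.0 for mmp9, 96.0 for cd74b and for lyz, and 94.6 for mxc. It stood at 34.6 for irf9, 39.4 for slc7a7 and 42.2 for zap70. By group the median SD was 0.41 in MeHg and 0.72 in control libraries for microglia and macrophage genes, 0.56 and 0.71 for leukocyte genes, and 0.70 and 0.87 for interferon genes. The SD was larger in MeHg libraries for 7 of 29 members (among them c1qc, marco, cd74a, lyz, isg15 and stat2), which is 24.1%, and for 25.1% of all genes, so the members did not stand apart from the table in this. Without control replicate 5 the share was 44.8% of members (13 of 29) and 42.8% of all genes. Without MeHg replicate 4 it was 3 of 29 members and 23.1% of all genes. In the 8 libraries with low epidermis levels it was 4 of 29 (13.8%) against 27.7% of all genes, and 0 of 10 microglia genes.

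A test of the absolute deviations from the lineage mean, fitted over all genes with limma, called 0 members (smallest adjusted p 0.411), and 0 also below 0.05 before adjustment. Of all genes 3 passed (0.0183%) and 14.2% had an unadjusted p under 0.05. In simulated data with SDs made 4 times larger in the MeHg lineage, this test recovered 0% of 200 genes at 11 libraries after adjustment. At an unadjusted p under 0.05 it recovered 54.5% of them. The 0 calls after adjustment thus say little about the spread. A larger SD in the control lineage, seen for 22 of 29 members, was not simulated. The test of means recovered 45% of simulated 2-fold changes and 93% of simulated 4-fold changes, with 16364 genes in the fit and 8 false calls. The median pooled SD was 0.66 for the members and 0.39 for all genes. Recovery for genes with the level and spread of the members was not tested.

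**Figure D5:**
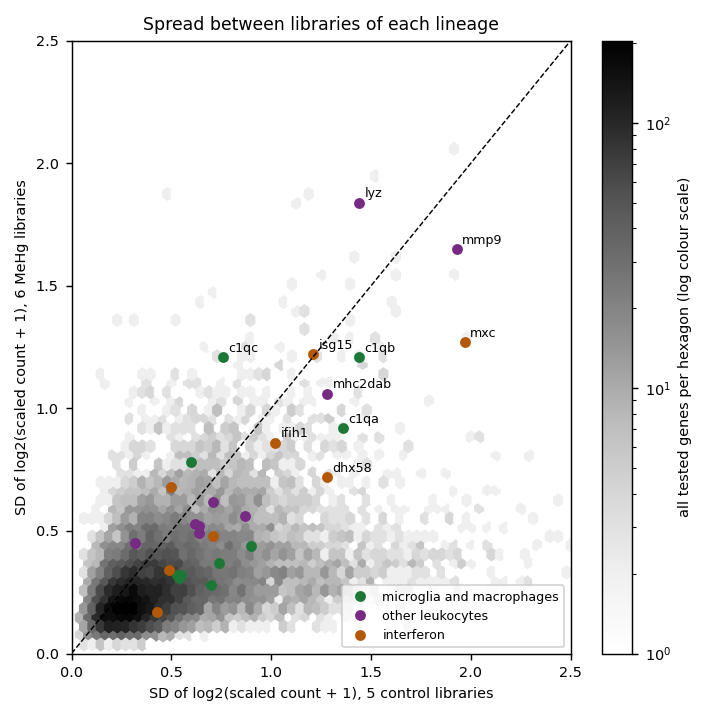
SD of log2(scaled count + 1) over 6 MeHg libraries (vertical) and 5 control libraries (horizontal), for 27 of the 29 tested members (coloured points) over the density of all genes tested (grey), with a dashed line of equal SD. Most members lie below the line, as do most genes, and c1qc and lyz lie furthest above it.

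Members of a group tended to go up and down together across libraries. Pairwise Pearson correlations within and between groups were taken on deviations of log2 values from the lineage mean, over 11 libraries. Their median was 0.71 among leukocyte genes, 0.53 among microglia genes and 0.43 among interferon genes, against 0.0 for all pairs of tested genes. These points share library, scaling and depth, so the correlations are descriptions. Single named pairs were correlated on the log2 values themselves, not on deviations. For c1qa with c1qb the correlation was 0.96, and 0.97 in the 8 libraries with low epidermis levels. For cd74b with mhc2dab the value was 0.93 over 11 libraries and 0.82 over 8. By contrast ifih1 correlated with isg15 at -0.23. Between groups, leukocyte and microglia genes had a median correlation of 0.60 and interferon and leukocyte genes of 0.51.

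The genes most like the most variable microglia member, c1qb, over 11 libraries were ctsh (Pearson r = 0.975), c1qa (0.963), si:dkey-5n18.1 (0.962), tspan4b (0.939) and pcolcea (0.938). For mxc, the most variable interferon member, they were skap2 (0.962), cnpy1 (0.946), anxa11b (0.931), gtf2f2a (0.915) and an unnamed gene, ENSDARG00000068102 (0.912). These are the 5 highest values among 16364 tested genes for each member, given as a description and with no test.

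Per length, the order of levels was set by apoeb, with a mean of 614 FPKM over the 11 libraries, above 99.2% of tested genes. It was followed by cd74a (387 FPKM), cd74b (212 FPKM) and mhc2dab (83.3 FPKM). Lower again was coro1a (20.3 FPKM). A further step down, irf9, lyz, havcr1, mpeg1.1, c1qb and lcp1 had 11.3 to 12.9 FPKM, and they did not differ beyond their spread between libraries (SD 3.08 to 14.4). The microglia markers csf1rb (2.64 FPKM) and p2ry12 (1.53 FPKM) and the T cell gene zap70 (1.05 FPKM) were near the lower end. By lineage apoeb had 422 ± 134 FPKM in MeHg libraries and 844 ± 628 FPKM in control libraries, and coro1a 19.5 ± 8.18 FPKM in MeHg libraries and 21.3 ± 10.9 FPKM in control libraries (SD, n = 6 and 5).

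Further genes of the same pathways were read from wider lists, and none passed the test in either direction, against 0.269% of all genes. Of 37 tested genes of microglia and macrophages, lysosome and phagocytosis included, 15 had a positive log2 fold change, with a median of -0.11. There were 4 genes at an unadjusted p under 0.05 by limma, a limit that 6.61% of all genes met. The smallest p was that of lgals3bpb, a secreted galectin-binding glycoprotein gene. It had 803, 672, 704, 682, 646 and 886 in MeHg replicates 1, 2, 4, 5, 7 and 8, against 525.7, 457, 424, 346 and 701 in control libraries. Only control replicate 8 reached into the MeHg range, and its log2 difference of 0.61 ± 0.17 (SE) had an adjusted p of 0.31 by limma. The lysosomal protease gene ctsd had 831 to 911 in MeHg libraries and 937.5 to 1386 in control libraries, which did not overlap (1.37% of all genes), at -0.30 ± 0.11 on the log2 scale (SE), with an adjusted p of 0.643 by limma. The myeloid transcription factor gene cebpa was at -0.35 ± 0.14 (adjusted p = 0.651).

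Of 10 tested complement genes, 10 lymphocyte genes and 10 neutrophil and mast cell genes, 0, 1 and 0 had an unadjusted p under 0.05. The share over all genes, 6.61%, is the background for these counts and for those of the next 2 lists. The 1 was gata3, which neurons also express, at -0.47 ± 0.18 (SE) and an adjusted p of 0.647 by limma. Of 32 genes of cytokines, chemokines and innate sensing, 2 had an unadjusted p under 0.05. They were il10rb at -0.41 ± 0.17 and nod1, an intracellular sensor of bacterial cell walls, at 0.84 ± 0.38 (adjusted p 0.683 and 0.743). The nitric oxide synthase gene nos2a, next by p, was at -1.10 ± 0.52 (adjusted p = 0.77). Of 45 further interferon genes tested, of 70 found among 97 listed, 29 had a positive log2 fold change, with a median of 0.14, and 2 had an unadjusted p under 0.05. Those were gbp at -0.77 ± 0.24 and traf3, a signalling adaptor, at -0.43 ± 0.20 (adjusted p 0.43 and 0.749). The list and its counts hold gbp by its symbol alone, with no role given. Whether it is a gene of the interferon response was not checked. For gbp the scaled counts were 81.8, 62.0, 96.4, 51.6, 59.0 and 71.5 in MeHg replicates 1, 2, 4, 5, 7 and 8, against 75.4, 147.6, 188, 106.7 and 103.5 in control libraries. Control replicate 2 lay within the MeHg range and the other 4 control libraries above it.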

How the data were processed

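Total RNA of F3 brains was sequenced from both ends with reads of 100 bp, per the labels' protocols. The tools CASAVA 1.8.2, cutadapt, FastQC, TopHat and Cuffnorm and the build Zv9 are listed without settings, per the submitters' processing notes. The annotation version, the strand, and how reads shared by gene copies were handled: each is not given in the sources used here. Values of paralogs (the Mx, ifit and C1q genes, cd74a and cd74b) are uncertain for that reason. The authors deposited a table of signal values and a table of FPKM values, each with 32674 genes and 1 column with no name, which was not used. The deposited signal values are fragment counts divided by a size factor per library, as read from the values: each library has its own smallest step, and of its values above 0 and below 200 steps, 98.2% to 98.9% were whole multiples of it within 0.01. Implied depths follow from that step. The deposited FPKM values are normalised by the authors for gene length and depth, and were used for levels between genes.

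Members were matched by the symbol in the tables, which name 20495 genes. All 29 tested members enter the counts, medians and sums, and 2 of them, both interferon genes, are not reported singly here. A pseudocount of 1 was added to the scaled counts before taking log2, and lineage was fitted as the only factor with limma 3.58.1 (R 4.3.3, robust eBayes with a trend, using statmod 1.5.0). The fit held the 16364 genes that reached 10 in 6 or more libraries. Benjamini-Hochberg adjustment ran over all of them, and 0.05 was the threshold. Spread was tested with limma on absolute deviations from the lineage mean, scaled for group size, with robust eBayes but without a trend. Both tests were tried on simulated data. The members, the wider gene lists and the rule for named genes (in each wider list up to 3 genes with the smallest p, and the 5 genes most correlated with the most variable microglia and interferon member) were chosen with earlier results of these data known. Fold changes are printed for the tested members reported singly whose log2 value is at least 0.25 in size.

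Alternatives were pseudocounts of 0.5 and 5, other filters, other scalings, the FPKM table (pseudocounts 0.1 and 1), a threshold of 0.1, weights per library, the replicate number as a block, and each library left out in turn. Scaling by median ratios or totals and subsets of 8 and 7 libraries were added after seeing the data. Planned count-based tests were not run, because the deposited values are not whole counts, and the planned scan of promoters was not run because no promoter sequence was used here. Scripts used Python 3.11.15, pandas 2.3.3, numpy 2.4.6 and scipy 1.17.1 and figures used matplotlib 3.10.9.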

Additional observations from a re-analysis of the deposited data

Results flagged for a closer look

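Dixon's criterion was applied to log2(scaled count + 1) in 58 sets of values (29 tested members in 2 lineages). In 5 of them the highest or lowest library stood apart from the others of its lineage. Chance flags about 1 in 20, but these sets share libraries and members were correlated, so the count is a description. The values listed here are scaled counts. In the MeHg lineage, c1qb was at 197.2 in replicate 4 and at 19.7 to 36.9 in the other 5 libraries, and slc7a7 at 60.07 in replicate 4 and at 31.9 to 39.9 in the others. For mxc the lowest MeHg library stood apart, replicate 8 at 1.212, where the others had 14.8 to 23.8. In the control lineage, replicate 5 was far above the other 4 libraries for spi1b (131.7, others 52.8 to 58.2) and for lcp1 (255.0, others 86.9 to 111.9). MeHg replicate 4 and control replicate 5 were also the 2 libraries with the highest red blood cell sums, 18450 and 25790, and the part of this in the values was not tested.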

How the results depend on the processing

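The count of members past the threshold was 0 under every setting run, in each of the 3 groups, and 0 members differed in spread. In the fits of means, members at an unadjusted p under 0.05 numbered 0 to 3. All genes at that limit numbered 404 (no scaling) to 2012 (weights per library), each of 16364. In the fits of spread members also numbered 0 to 3. There all genes numbered 278 (about the lineage median) to 3728 (without control replicate 8), each of 16364. Of the 29 members 10 kept the sign of the log2 fold change in all settings and 19 changed it at least once. The count over all genes, 44 (16 higher, 28 lower), was 81 at a threshold of 0.1, 105 with weights per library, 24 with no scaling (12 higher, 12 lower), 22 in the 8 libraries with low epidermis levels, and 36 to 72 with 1 library left out (72 without control replicate 5, 42 of them lower). With no scaling the median log2 fold change of all genes was 0.30 and that of the members 0.39. The count for spread over all genes, 3, was 15 in the FPKM table, 0 about the lineage median, 15 in the 8 low-epidermis libraries and 0 to 42 with 1 library left out.

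Replicate numbers are not said to pair samples across lineages, and the values cannot settle it. Deviations of libraries with the same number correlated at 0.0992, 0.463, 0.193 and 0.0554 for replicates 2, 4, 5 and 8. Only for MeHg replicate 4 was the control library of the same number its most correlated control library. With the replicate number as a block, 20 genes and 0 members passed, and 23 genes in those 8 libraries (replicates 2, 4, 5 and 8 of each lineage) without the block. Both fits gave a log2 fold change of -0.97 for apoeb. By limma its unadjusted p was 0.00183 with the block and 0.0423 without it (adjusted p 0.41 and 0.951). They also gave 0.48 for mmp9 and 0.54 for lyz, the reverse of all libraries. Among members with a printed fold change, further reversals outside the left-out libraries were csf1rb at -0.02 with weights per library and zap70 at -0.17 in the 8 low-epidermis libraries. With 1 library left out, the log2 fold change spanned -0.17 to 0.74 for c1qb, -0.07 to 0.66 for mhc2dab and -1.06 to 0.10 for lyz. The cause was not tested. Scalings and tests made for whole counts were not run. Genes with a few fragments per library, such as most Mx and ifit genes, were too shallow for a statement on either lineage.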
